A study of Sus scrofa with 16 samples.

Results

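The comparison described here is that of dystrophic (DMD) with wild-type (WT) satellite cells (SCs) in proliferation (PROL), taken as all 8 PROL samples among the 16 samples of the series, 4 DMD and 4 WT, and across all genes of the count table. The 2 technical duplicates of each sample were added, and each sample stands for 1 piglet. The DMD group held SCs of 4 piglets that lack exon 52 of *DMD*, a deletion that leaves them without dystrophin. The WT group held SCs of 4 piglets with the intact gene. In both groups the cells came from the intercostal muscle of male animals at an age of 3 days. Magnetic sorting had removed cells with CD31 or CD45 at their surface and then retained cells with ITGB1, NCAM1 or M-cadherin. The antibodies to these 3 were used together, so the sort did not require all of them on a cell. The cells were grown to passage 6 in Ham's F10 with 20% fetal bovine serum and basic fibroblast growth factor. The other 8 samples of the series are the same animals' cells after differentiation (DIFF) in medium with 5% horse serum. They are used here only where the PROL difference is set beside the DIFF difference. RNA was measured by sequencing the 3′ ends of polyadenylated transcripts.

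SCs are the stem cells of skeletal muscle. They lie between the muscle fiber and its basal lamina, and after injury they divide, turn into myoblasts under the regulators MYF5 and MYOD1, and then leave the cell cycle, express myogenin and the contractile proteins, and fuse. Dystrophin links the actin cytoskeleton of the muscle fiber to a complex in its membrane and through it to the extracellular matrix, and its loss causes Duchenne muscular dystrophy.

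The *DMD* transcript itself, which the genotype concerns, gave 24, 28, 32 and 30 counts in DMD, against 6, 6, 6 and 6 in WT. Scaled to CPM (counts relative to the library total, corrected by the TMM factor of the library), this was 14.8, 17.7, 18.6 and 19.7 CPM in DMD, against 4.37, 3.72, 3.26 and 4.62 CPM in WT. All DMD libraries were above all WT libraries (log2 fold change, here and throughout DMD over WT with its SE, 2.13 ± 0.36; adjusted *p* = 0.000408 in edgeR's quasi-likelihood test, adjusted by Benjamini-Hochberg over all genes tested). Reads at the 3′ end do not cover exon 52, so these counts do not check the genotype labels.

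Library totals ran from 1477772 to 1664700 counts in DMD and from 1110050 to 1657300 in WT. Of 3875 genes in the table, 856 had no count in the 8 libraries and 1914 passed the filter on low counts. A gene could pass through the libraries of 1 genotype alone, and could then hardly be called higher in the other genotype. Log2 CPM correlated by 0.975 to 0.978 among DMD libraries, by 0.970 to 0.973 among WT libraries and by 0.889 to 0.925 between the genotypes. DMD replicate 4 stood apart in the share of counts on the 18S ribosomal RNA gene *RN18S*, with 20.4% against 7.63% to 8.66% in the other DMD libraries and 6.32% to 9.49% in WT. WT replicate 3 was the highest WT library for 88 of the 189 genes that were lower in DMD. All deposited counts are even numbers, for which no reason is given.

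Of the genes tested, 349 were called (18.2%), at an adjusted *p* under 0.05 and a log2 fold change over 0.6 in either direction. Of these, 160 were higher in DMD (8.36%) and 189 lower (9.87%). The libraries of the genotypes did not overlap for 321 of the 349, against 575 of all 1914 genes tested (30%). The median log2 fold change of all genes tested was -0.0021. Without DMD replicate 4 there were 165 genes higher and 190 lower. Without WT replicate 3 there were 154 higher and 161 lower, and without both libraries, a setting added after seeing the data, 144 and 160. Scaling by library size alone moved the median to -0.15 and the split to 122 higher and 264 lower, so that the directions below are relative to the TMM scaling.

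The myogenic regulators that define SCs and myoblasts had few counts in DMD and fewer in WT. *PAX7* and the genes of M-cadherin (*CDH15*), NCAM1 (*NCAM1*) and the integrin alpha 7 chain (*ITGA7*) are not in the count table under these symbols. Their levels could therefore not be examined. *MYF5*, the earliest of the myogenic determination factors, had 6, 8, 6 and 10 counts in DMD, against 0, 0, 0 and 0 in WT. *MYOD1*, which commits cells to the muscle lineage, had 16, 20, 8 and 8 counts in DMD, against 8, 0, 0 and 0 in WT. *MYOG*, myogenin, which turns on terminal differentiation, had 26, 18, 34 and 6 counts in DMD, against 0, 4, 0 and 2 in WT. These regulators were thus counted in every DMD library and in few WT libraries, and none of them passed the filter on low counts in PROL. In a fit without the filter, *MYOG* (log2 fold change 3.59, edgeR adjusted *p* = 2.58e-05) and *MYOD1* (2.496, edgeR adjusted *p* = 0.0237) were higher in DMD. *MYF5* had an edgeR adjusted *p* of 0.00295 in that fit, and was at least 8.54-fold higher in DMD when the WT group was set at a floor of 3 counts (4.27-fold with halved counts). *MSTN*, the muscle growth inhibitor myostatin, had 6, 14, 18 and 6 counts in DMD, against 0, 0, 4 and 0 in WT (without the filter, log2 fold change 3.27, edgeR adjusted *p* = 0.00565). *CALCR* and *SDC4*, surface proteins of quiescent SCs, had at most 8 counts in any DMD library and at most 12 in any WT library, and *CXCR4* was not counted in any library. *ITGB1*, the integrin chain used for sorting, was abundant in both genotypes with 4123, 5577, 5755 and 5026 CPM in DMD, against 4578, 3000.5, 4885 and 4291 CPM in WT, and the groups overlapped (log2 fold change 0.28 ± 0.15, edgeR adjusted *p* = 0.189).

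Markers that passed the filter were on both sides. *CD82*, a tetraspanin of human SCs, had 297, 298, 251 and 147 CPM in DMD, against 14.6, 9.93, 17.4 and 20.0 CPM in WT, a log2 fold change of 4.00 ± 0.27 (edgeR adjusted *p* = 2.75e-07). Its lowest DMD value, in replicate 4, was still above every WT value. *DES* and *MET*, the receptor for hepatocyte growth factor, were also higher (log2 fold changes 4.03 ± 0.14 and 2.51 ± 0.27, edgeR adjusted *p* = 1.74e-10 and 5.97e-06). *VCAM1*, an adhesion molecule of SCs and of stromal cells, was lower (log2 fold change -3.52 ± 0.25, edgeR adjusted *p* = 1.86e-07). In bulk samples, fewer cells of a type and less RNA per cell cannot be told apart.

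Markers of other cell types differed as well. Of 14 counted markers of fibroblasts and fibro-adipogenic cells, 10 were tested, 7 were lower in DMD and 1 was higher, and their summed level ran from 4752 to 5262 CPM in DMD and from 11013 to 15009 CPM in WT. Over all genes tested, 8.36% were higher and 9.87% lower. Of 6 endothelial markers, 3 were tested and all 3, *PECAM1*, *ERG* and *ENG*, were lower. *ENG*, and *RGS5* of the pericyte markers below, passed the filter on low counts through the WT libraries, so they could hardly be called higher. The endothelial sums were 16.0 to 34.9 CPM in DMD and 146 to 163 CPM in WT, and *VWF* was not counted in any library. Of 17 blood cell markers, 10 were at 0 in all 8 libraries, and the sums ran from 33.2 to 54.7 CPM in DMD and from 44.6 to 88.0 CPM in WT. Of 13 counted adipocyte markers, only 1 was tested, *CIDEA*, and it was higher in DMD. The adipocyte markers summed to 52.5 to 78.7 CPM in DMD and 7.70 to 21.8 CPM in WT, with *ADIPOQ*, *LPL*, *RETN* and *DGAT2* at 0. Of 7 pericyte and smooth muscle markers, 6 were tested, *DES* was higher and *RGS5*, *CNN1* and *ANPEP* were lower, with sums of 2962 to 3623 CPM in DMD and 2052 to 3294 CPM in WT. Without *DES*, which muscle cells make as well, the sums were 1858 to 2391 CPM in DMD and 1985 to 3234 CPM in WT, and the groups overlapped in both cases. The part that the cell mixture has in the gene differences below was not tested.

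The genes of the contractile apparatus were far higher in DMD. In each of 3 lists, thick filament, thin filament and Z-disc, 80% of the tested members were called higher and none lower, which came to 4 of 5, 8 of 10 and 4 of 5 genes. Of these, *MYH1*, *MYBPH*, *ACTN2* and *MYOT* passed the filter on low counts through the DMD libraries alone, so they could hardly be called lower. The median log2 fold changes of these lists were 4.44, 3.93 and 4.12, against -0.0021 over all genes tested. Of the thick filament, *MYH1*, an adult fast myosin heavy chain, had 35.7, 40.5, 34.9 and 10.5 CPM in DMD, against 1.46, 0, 1.09 and 3.08 CPM in WT (log2 fold change 4.44 ± 0.60, and 5.06 without WT replicate 4, the highest of WT). *MYBPH*, a myosin binding protein, had 41.8, 40.5, 30.3 and 13.1 CPM in DMD, against 1.46, 4.96, 0 and 1.54 CPM in WT (log2 fold change 3.94 ± 0.61, and 5.01 without WT replicate 2). For both genes every DMD library was above every WT library, and DMD replicate 4 held the lowest DMD value (edgeR adjusted *p* = 5.98e-05 for *MYH1* and 0.000240 for *MYBPH*). The regulatory light chain *MLC2V*, a RefSeq synonym of *MYL2* and known from slow and ventricular muscle, had 325, 282, 315 and 165 CPM in DMD, against 7.28, 7.45, 7.61 and 12.3 CPM in WT (log2 fold change 4.97 ± 0.26, edgeR adjusted *p* = 1.21e-08).

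Of the thin filament, cardiac alpha actin *ACTC1*, which developing skeletal muscle also makes, had 2808, 2964, 3029.8 and 2019 CPM in DMD, against 102, 112, 178 and 159 CPM in WT. Its log2 fold change was 4.28 ± 0.22 (edgeR adjusted *p* = 1.15e-06), and DMD replicate 4, the lowest of DMD, was far above every WT library. *TNNT1*, the troponin T of slow fibers that anchors the troponin complex to tropomyosin, had 399, 439, 597 and 332 CPM in DMD, against 16.0, 16.1, 27.2 and 29.2 CPM in WT (log2 fold change 4.30 ± 0.24, edgeR adjusted *p* = 1.71e-07). The DMD libraries were high throughout, the WT libraries low but above 0. Actin and myosin genes have near-identical copies, and reads that the counting could not place on 1 of them may be missing or shared.

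At the Z-disc, where thin filaments of neighbouring sarcomeres meet, *ACTN2*, the alpha-actinin that crosslinks them, had 67.7, 74.6, 85.0 and 31.5 CPM in DMD, against 0, 2.48, 4.35 and 0 CPM in WT (log2 fold change 5.01 ± 0.58, edgeR adjusted *p* = 6.13e-05, and 5.99 without WT replicate 3). *MYOT*, myotilin, which binds alpha-actinin, had 30.8, 25.3, 30.3 and 17.1 CPM in DMD, against 0, 0, 1.09 and 1.54 CPM in WT (log2 fold change 5.14 ± 0.58, edgeR adjusted *p* = 7.37e-06). *CARP*, a RefSeq synonym of *ANKRD1*, is a stretch-responsive ankyrin repeat protein bound to titin. It had 372, 404, 431 and 349 CPM in DMD, against 21.8, 13.7, 29.3 and 23.1 CPM in WT, with the groups far apart (log2 fold change 4.12 ± 0.17, edgeR adjusted *p* = 1.93e-10). The Z-disc count was 7 without any one of the 4 WT libraries, in fits that tested 1937 to 1956 genes. DMD replicate 4, with its high *RN18S* share, was the lowest DMD library for 4 of the 4 thick filament genes called, 7 of the 8 thin filament genes and 3 of the 4 Z-disc genes, against 59 of all 160 genes higher in DMD. Without it the same lists held 4, 8 and 6 genes higher.

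**Figure D1:**
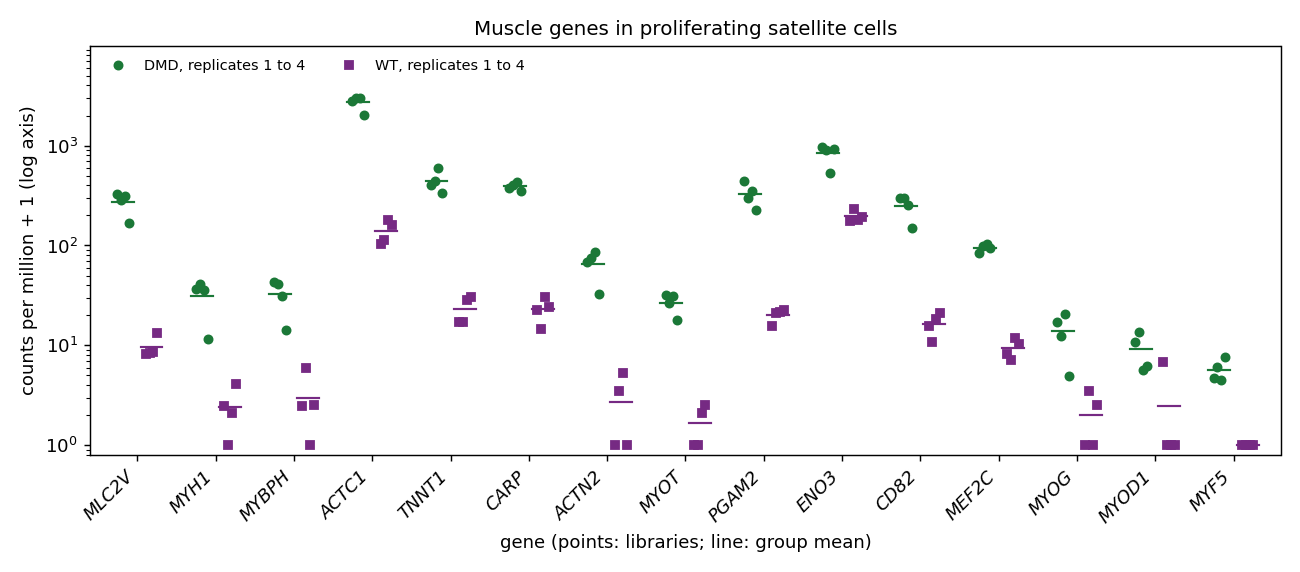
CPM + 1 on a log axis for 15 muscle genes in each of the 4 DMD libraries (left, green circles) and the 4 WT libraries (right, purple squares), with group means as lines. The DMD libraries lie above the WT libraries for the contractile genes, and *MYOD1* is the only gene drawn whose genotypes overlap.

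Enzymes of muscle energy metabolism moved less as a group, with 2 of 11 tested members higher, none lower and a median log2 fold change of 0.36. Their share called, 18.2%, was that of all genes tested, 18.2%. *PGAM2*, the muscle form of phosphoglycerate mutase, had 440.5, 296, 350.4 and 227 CPM in DMD, against 14.6, 19.9, 20.6 and 21.5 CPM in WT (log2 fold change 4.08 ± 0.22, edgeR adjusted *p* = 1.22e-08). *ENO3*, the muscle enolase, had 971, 904, 533 and 925 CPM in DMD, against 173, 229.6, 180.3 and 194 CPM in WT (log2 fold change 2.09 ± 0.19, edgeR adjusted *p* = 1.66e-05). For *PGAM2*, DMD replicate 1 was the highest and DMD replicate 4 the lowest of DMD, and all were far above WT. For *ENO3*, DMD replicate 3 was the lowest of its group and still above all WT libraries.

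Of the dystrophin-associated complex, 3 of 5 tested members were higher and none lower, against 8.36% higher and 9.87% lower of all genes tested. The gene *DMD* passed the filter on low counts through the DMD libraries alone, so it could hardly be called lower. Beside *DMD* the higher members were alpha-sarcoglycan *SGCA*, which is made in striated muscle (log2 fold change 3.46 ± 0.28, edgeR adjusted *p* = 2.17e-07), and delta-sarcoglycan *SGCD*, which smooth muscle makes as well. *SGCD* had 78.7, 68.3, 76.8 and 126 CPM in DMD, against 56.8, 39.7, 47.8 and 41.6 CPM in WT, a smaller difference with a log2 fold change of 0.90 ± 0.21 (edgeR adjusted *p* = 0.00451). Genes outside the lists were among the 12 increases with the smallest *p*. *POPDC3*, a membrane protein of striated muscle that binds cyclic AMP, had 68.9, 97.3, 85.0 and 81.3 CPM in DMD, against 5.82, 3.72, 5.43 and 6.16 CPM in WT (log2 fold change 3.96 ± 0.24, edgeR adjusted *p* = 1.33e-08). *PKIA*, an inhibitor of protein kinase A, had 765, 647, 617 and 625 CPM in DMD, against 185, 247, 190.1 and 212 CPM in WT (log2 fold change 1.66 ± 0.11, edgeR adjusted *p* = 4.60e-08). In both genes the values within a genotype were close to each other and the genotypes lay well apart.

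Among myogenic regulators, 3 of 9 tested members were higher and 1 was lower, with a median log2 fold change of 0.18. *MEF2C*, a partner of the MYOD family on muscle promoters, was higher by 3.46 ± 0.22 (edgeR adjusted *p* = 2.09e-08), and *CD82*, given above, was another. *ID2*, an inhibitor of helix-loop-helix factors such as MYOD1, was the lower one with 171, 188, 159 and 115 CPM in DMD, against 278, 217, 306 and 249 CPM in WT (log2 fold change -0.74 ± 0.15, edgeR adjusted *p* = 0.00156), and it was at -0.53 without both DMD replicate 4 and WT replicate 3. The count of members called higher was 5 without DMD replicate 4, WT replicate 1 or WT replicate 4, and 6 without WT replicate 2 or WT replicate 3. It was 7 in the fit on all 16 libraries and 11 without the filter on low counts, with 1 member lower in each of these fits.

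**Figure D2:**
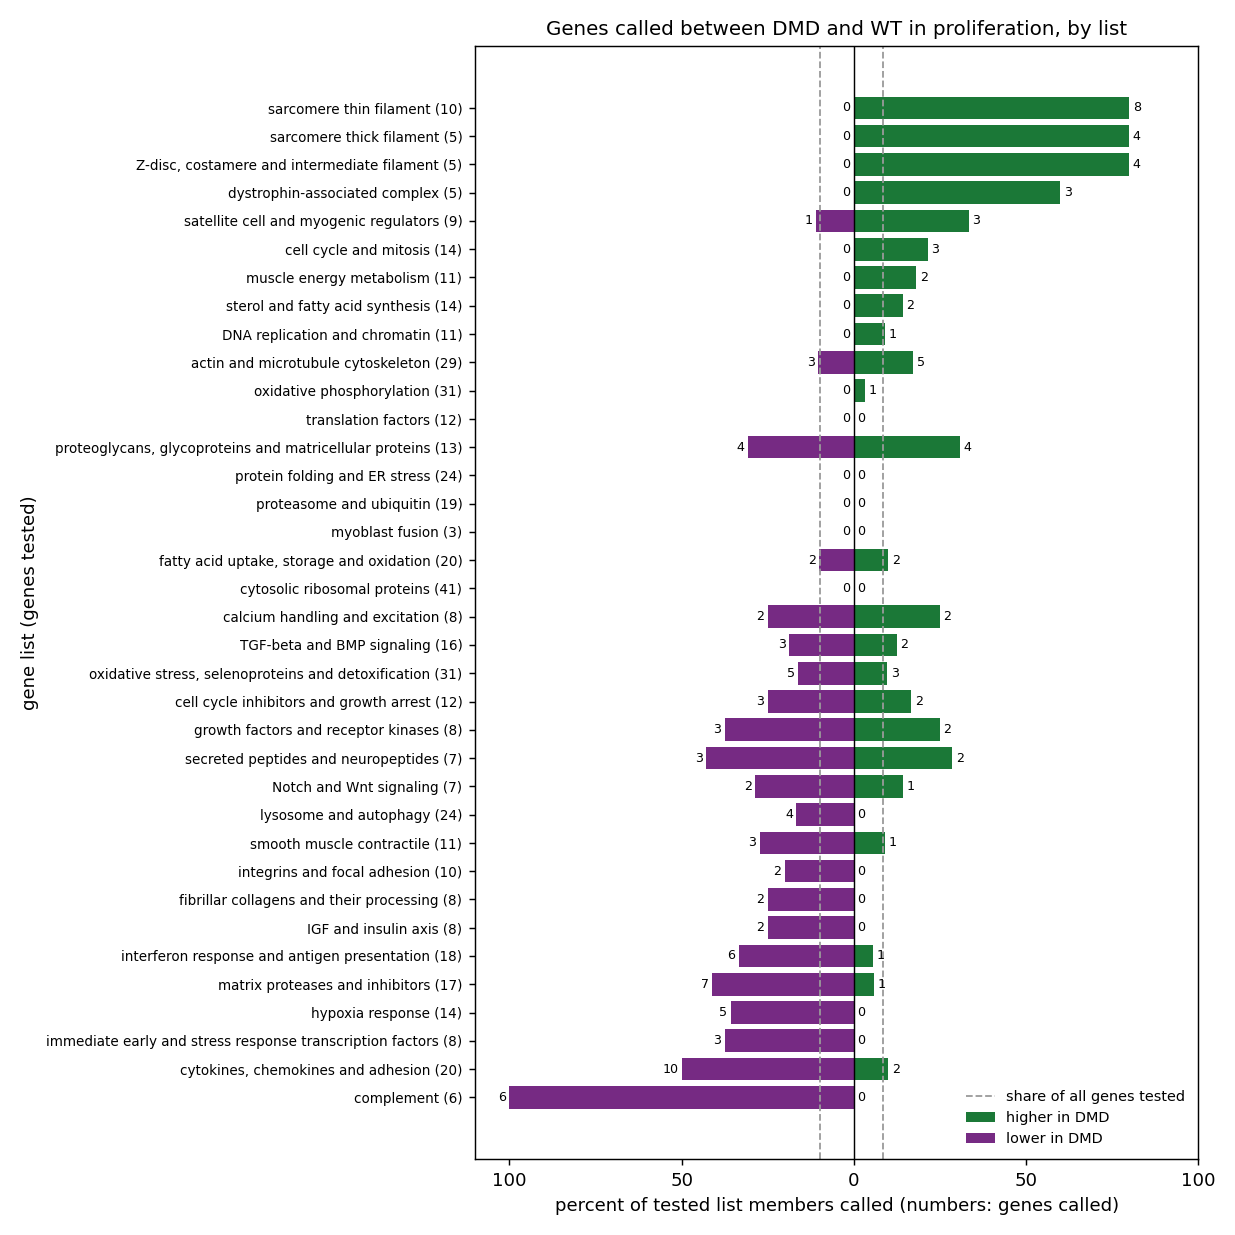
Share of the tested members of each of 36 gene lists that were called higher (green, to the right) or lower (purple, to the left) in DMD than in WT, in percent, with the number of genes at each bar. Dashed lines mark the shares over all 1914 genes tested, 8.36% higher and 9.87% lower. The contractile lists stand at the top with 80% higher, and complement at the bottom with all 6 members lower.

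Transcripts of the extracellular matrix were lower in DMD for several abundant members. *COL3A1*, the chain of collagen type III, had 579.5, 786, 875 and 770.2 CPM in DMD, against 1369.6, 1700.0, 1697 and 1452 CPM in WT (log2 fold change -1.06 ± 0.12, edgeR adjusted *p* = 9.78e-06). *COL1A2*, a chain of collagen type I, had 3235, 2924, 3345 and 3418 CPM in DMD, against 5254, 5683, 4619 and 4491 CPM in WT (log2 fold change -0.64 ± 0.09, edgeR adjusted *p* = 5.44e-05), and its fold change fell short of the threshold without WT replicate 2, at -0.57. These were the called members among 8 tested fibrillar collagens and genes of their processing, whose median log2 fold change was -0.046 with 3 of the 8 above 0. Their share called was 25%, against 18.2% of all genes tested. Of 13 tested proteoglycans and glycoproteins, 4 were lower and 4 higher, with a median of -0.54. *DCN*, the collagen-binding proteoglycan decorin, had 176, 277, 225 and 223 CPM in DMD, against 1345, 1850.2, 2096 and 1364 CPM in WT (log2 fold change -2.90 ± 0.18, edgeR adjusted *p* = 1.60e-06). *FBN1*, the fibrillin of elastic microfibrils, had 71.4, 59.4, 86.1 and 68.2 CPM in DMD, against 139.7, 141, 237 and 180.1 CPM in WT (log2 fold change -1.30 ± 0.18, edgeR adjusted *p* = 5.98e-05), and *MFAP5*, a microfibril component that binds it, had 25.8, 26.5, 41.9 and 35.4 CPM in DMD, against 127, 118, 141 and 92.4 CPM in WT (log2 fold change -1.89 ± 0.20, edgeR adjusted *p* = 3.60e-06). None of these groups overlapped. The count of 4 higher members, *VCAN*, *EFEMP1*, *SPARCL1* and *TNC*, was 1 without DMD replicate 2, DMD replicate 4 or WT replicate 1, and 2 without DMD replicate 1, DMD replicate 3 or WT replicate 3.

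Matrix proteases and their inhibitors followed with 7 of 17 tested members lower and 1 higher (median -0.90). *MMP2*, the gelatinase A of stromal cells, had 35.7, 50.6, 50.1 and 57.7 CPM in DMD, against 137, 182, 179 and 114 CPM in WT (log2 fold change -1.67 ± 0.19, edgeR adjusted *p* = 7.51e-06). *CTSZ*, a lysosomal carboxypeptidase that can be secreted, had 56.6, 43.0, 64.0 and 99.7 CPM in DMD, against 146, 118, 149.9 and 119 CPM in WT (log2 fold change -1.03 ± 0.21, edgeR adjusted *p* = 0.00202). The higher one was the metalloprotease inhibitor *TIMP2*, which was not called when scaling by library size alone. *CDH11*, the cadherin of mesenchymal cells, had 101, 93.5, 112 and 163 CPM in DMD, against 392, 346, 442 and 440.2 CPM in WT (log2 fold change -1.80 ± 0.16, edgeR adjusted *p* = 9.72e-07), and the small secreted protein gene *PLAC9* had 257, 276, 274 and 281 CPM in DMD, against 565, 712, 777 and 565 CPM in WT (log2 fold change -1.28 ± 0.11, edgeR adjusted *p* = 5.25e-07). For *CDH11*, DMD replicate 4 was the highest of DMD at less than any WT library. Both genes were among the 12 decreases with the smallest *p* and are in none of the lists.

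Several transcription factors and vascular genes were much lower in DMD. *SOX9*, the regulator of cartilage and of matrix genes, had 14.8, 13.9, 18.6 and 22.3 CPM in DMD, against 227, 153, 131 and 231 CPM in WT (log2 fold change -3.41 ± 0.23, edgeR adjusted *p* = 4.40e-08). *GATA2*, a factor of blood progenitors and endothelium, had 2.46, 1.26, 2.33 and 7.87 CPM in DMD, against 46.6, 40.9, 58.7 and 32.3 CPM in WT (log2 fold change -3.69 ± 0.41, edgeR adjusted *p* = 6.44e-06, and -4.42 without DMD replicate 4, the highest of DMD). Each gene was low in all 4 DMD libraries and high in all 4 WT libraries. *ENG*, endoglin, a co-receptor for TGF-beta on endothelial and stromal cells, had 2.46, 3.79, 6.98 and 5.25 CPM in DMD, against 29.1, 42.2, 25.0 and 18.5 CPM in WT (log2 fold change -2.62 ± 0.39, edgeR adjusted *p* = 0.000119). *RGS5*, a pericyte marker that limits G protein signals, had 1.23, 2.53, 9.31 and 6.56 CPM in DMD, against 81.5, 37.2, 221 and 80.0 CPM in WT. WT replicate 3 held the highest value. The log2 fold change was -4.40 ± 0.77 with all libraries (edgeR adjusted *p* = 0.00482) and -3.73 when WT replicate 3 was left out. The level of *TMEM59L*, a membrane protein gene, was 18.5, 19.0, 26.8 and 27.6 CPM in DMD, against 128, 150.2, 225 and 162 CPM in WT (log2 fold change -2.87 ± 0.21, edgeR adjusted *p* = 8.82e-08). The sort had removed CD31-positive cells. *PECAM1*, the gene of CD31, was nonetheless counted, passed the filter and was called lower in DMD. The endothelial marker sums given above were lower in DMD as well, but *ENG* is itself 1 of those markers. The sums of the pericyte and smooth muscle markers, which hold *RGS5*, overlapped between the genotypes. The part of such cells in the result was not tested.

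**Figure D3:**
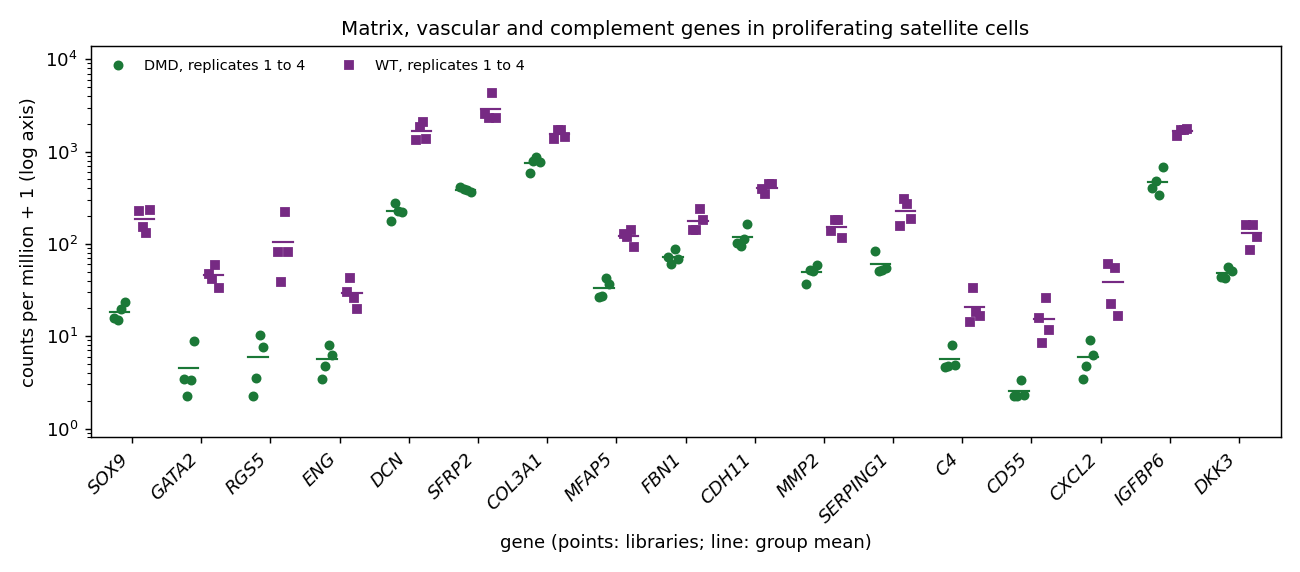
CPM + 1 on a log axis for 17 genes called lower in DMD, in the 4 DMD libraries (left, green circles) and the 4 WT libraries (right, purple squares), with group means as lines. In each gene the DMD points lie below the WT points, and WT replicate 3 stands out in *RGS5* and *SFRP2*.

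Complement was the list with the largest share called: all 6 tested members of 24 counted were lower, with a median log2 fold change of -2.02. Of these, *C4*, *CD55* and *C2* passed the filter on low counts through the WT libraries alone, so they could hardly be called higher. *C4*, a RefSeq synonym of *C4A*, the component that classical and lectin activation cleave, had 3.69, 3.79, 6.98 and 3.94 CPM in DMD, against 13.1, 32.3, 17.4 and 15.4 CPM in WT (log2 fold change -2.08 ± 0.42, edgeR adjusted *p* = 0.00155). *CD55*, a membrane inhibitor that protects cells from complement, had 1.23, 1.26, 2.33 and 1.31 CPM in DMD, against 14.6, 7.45, 25.0 and 10.8 CPM in WT (log2 fold change -3.18 ± 0.54, edgeR adjusted *p* = 0.000415). *SERPING1*, the inhibitor of the first component, was far more abundant and had 83.7, 49.3, 51.2 and 53.8 CPM in DMD, against 154, 309, 268 and 183 CPM in WT (log2 fold change -1.96 ± 0.25, edgeR adjusted *p* = 0.000153). The list thus holds activating components and inhibitors, lower alike, and *C2*, *CD46* and *CLU* were the other 3.

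Of 20 tested cytokines, chemokines and adhesion molecules, 10 were lower and 2 higher (median -0.92). *CXCL2*, a chemokine for neutrophils, had 2.46, 3.79, 8.15 and 5.25 CPM in DMD, against 59.7, 21.1, 53.2 and 15.4 CPM in WT (log2 fold change -2.91 ± 0.49, edgeR adjusted *p* = 0.000498). The DMD libraries were all low, and the WT libraries spread widely above them. The 2 higher genes were *CSF1*, the growth factor of macrophages, with 13.5, 19.0, 11.6 and 19.7 CPM in DMD, against 1.46, 1.24, 5.43 and 6.16 CPM in WT (log2 fold change 2.12 ± 0.49, edgeR adjusted *p* = 0.00406), and the interleukin gene *IL18*. The count was 1 without WT replicate 1. *CHI3L1*, a secreted chitinase-like protein of inflamed tissue, had 13.5, 2.53, 4.66 and 6.56 CPM in DMD, against 85.9, 85.6, 356 and 49.3 CPM in WT. WT replicate 3 again held the top value, and the log2 fold change was -4.41 ± 0.90 with it and -3.43 without it (edgeR adjusted *p* = 0.0129 and 2.97e-05).

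In the interferon and antigen presentation list, 6 of 18 tested genes were lower and 1 was higher (median -0.70). *IRF3*, which starts the interferon response, had 51.7, 69.5, 55.9 and 72.2 CPM in DMD, against 84.4, 98.0, 119.5 and 106 CPM in WT (log2 fold change -0.72 ± 0.17, edgeR adjusted *p* = 0.00433). *STAT3*, which carries the signals of the interleukin-6 family, had 2.46, 5.06, 5.82 and 5.25 CPM in DMD, against 10.2, 12.4, 17.4 and 16.9 CPM in WT (log2 fold change -1.61 ± 0.41, edgeR adjusted *p* = 0.00807), and *PSMB10*, a subunit of the immunoproteasome, had 65.2, 75.8, 54.7 and 59.0 CPM in DMD, against 128, 127, 91.3 and 84.7 CPM in WT (log2 fold change -0.77 ± 0.18, edgeR adjusted *p* = 0.00471). For these 3 genes the libraries of the genotypes did not overlap. *IFIH1*, a sensor of double-stranded RNA, went the other way with 12.3, 16.4, 16.3 and 23.6 CPM in DMD, against 1.46, 3.72, 6.52 and 4.62 CPM in WT (log2 fold change 2.01 ± 0.43, edgeR adjusted *p* = 0.00264). Scaling by library size alone raised the count of lower genes in this list to 11.

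Signaling components changed in both directions. The Wnt antagonist *SFRP2* was abundant in WT, with 407, 391, 383 and 363 CPM in DMD, against 2531, 2298, 4339 and 2315 CPM in WT (log2 fold change -2.90 ± 0.22, edgeR adjusted *p* = 2.15e-05). *DKK3*, of a family of Wnt antagonists, had 43.1, 41.7, 54.7 and 49.9 CPM in DMD, against 157, 84.4, 159 and 119 CPM in WT (log2 fold change -1.46 ± 0.20, edgeR adjusted *p* = 5.16e-05), whereas the Wnt receptor *FZD2* had 20.9, 13.9, 22.1 and 18.4 CPM in DMD, against 7.28, 4.96, 4.35 and 4.62 CPM in WT (log2 fold change 1.82 ± 0.36, edgeR adjusted *p* = 0.00132). These were the called members of 7 tested Notch and Wnt genes. Both insulin-like growth factor binding proteins that were called, of 8 tested genes of that axis, were lower (25% called, against 18.2% of all genes tested). *IGFBP6*, which prefers IGF2, had 405, 474, 339 and 672 CPM in DMD, against 1492, 1725, 1716 and 1773 CPM in WT (log2 fold change -1.84 ± 0.19, edgeR adjusted *p* = 9.51e-05), and *IGFBP4* had 2.46, 6.32, 6.98 and 2.62 CPM in DMD, against 11.6, 18.6, 39.1 and 21.5 CPM in WT (log2 fold change -2.30 ± 0.46, edgeR adjusted *p* = 0.00153). *IGFBP6* was close to uniform in WT and lay well apart from DMD.

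Of 16 tested TGF-beta and BMP genes, 2 were higher and 3 lower (median -0.13), and the higher count was 1 without DMD replicate 3. The ligand *BMP4* had 51.7, 60.7, 81.5 and 72.2 CPM in DMD, against 34.9, 43.4, 43.5 and 27.7 CPM in WT (log2 fold change 0.81 ± 0.21, edgeR adjusted *p* = 0.00846). Of 8 tested growth factors and receptor kinases, 2 were higher, *MET* and *CSF1*, and 3 lower (median -0.59). The lower count was 1 without DMD replicate 2 or WT replicate 3 and 0 without DMD replicate 4 and WT replicate 3 together. *VEGFA*, the growth factor of blood vessels, had 8.61, 21.5, 29.1 and 22.3 CPM in DMD, against 75.7, 35.99, 72.8 and 33.9 CPM in WT (log2 fold change -1.43 ± 0.36, edgeR adjusted *p* = 0.0101). Without both of the libraries named it was not called, at -1.30 (edgeR adjusted *p* = 0.0528). The direction held, while the spread in WT was wide: WT replicates 1 and 3 were about level with each other, and above replicates 2 and 4.

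Of 7 tested secreted peptides and neuropeptides, 2 were higher and 3 lower. *GAL*, the neuropeptide galanin, had 22.1, 13.9, 21.0 and 11.8 CPM in DMD, against 1.46, 1.24, 3.26 and 1.54 CPM in WT (log2 fold change 3.09 ± 0.47, edgeR adjusted *p* = 0.000149). *NPY*, neuropeptide Y, had 0, 2.53, 1.16 and 0 CPM in DMD, against 48.0, 11.2, 36.9 and 10.8 CPM in WT (log2 fold change -4.74 ± 0.79, edgeR adjusted *p* = 0.000635, and -5.79 without DMD replicate 2). *RAMP2*, which makes the calcitonin-like receptor respond to adrenomedullin, had 6.15, 5.06, 8.15 and 5.25 CPM in DMD, against 33.5, 35.99, 19.6 and 23.1 CPM in WT (log2 fold change -2.18 ± 0.34, edgeR adjusted *p* = 0.000183). *ADM*, adrenomedullin itself, had 73.8, 73.3, 62.9 and 84.0 CPM in DMD, against 112, 130.3, 95.6 and 114 CPM in WT, a log2 fold change of -0.63 ± 0.15 (edgeR adjusted *p* = 0.00588) that was under the threshold without DMD replicate 3 (-0.56) or WT replicate 2 (-0.55). Receptor component and ligand were thus both lower in DMD. The higher count was 1 without DMD replicate 1, DMD replicate 3 or WT replicate 2, and the lower count 5 without DMD replicate 4.

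Of 14 tested cell cycle and mitosis genes 3 were higher and none lower, 21.4% called against 18.2% of all genes tested, with a median of 0.17. Of 11 replication and chromatin genes 1 was higher and none lower (9.09%), with a median of 0.32. *STMN1*, stathmin, which destabilizes microtubules in dividing cells, had 833, 762.2, 839 and 752 CPM in DMD, against 371, 397, 297 and 380.2 CPM in WT (log2 fold change 1.13 ± 0.10, edgeR adjusted *p* = 6.48e-07). *CCNA2*, cyclin A2 of S phase and mitosis, had 249, 253, 204 and 245 CPM in DMD, against 148, 155, 123 and 171 CPM in WT (log2 fold change 0.66 ± 0.13, edgeR adjusted *p* = 0.000950), and was under the threshold without WT replicate 3 (0.57), when the count was 1. *HMGA1*, an architectural chromatin protein of growing cells, had 1994, 1706, 1543 and 2245 CPM in DMD, against 865, 742, 1010.4 and 836 CPM in WT (log2 fold change 1.11 ± 0.12, edgeR adjusted *p* = 7.97e-06). It was high in both genotypes and higher in DMD without overlap. The replication count was 2 without DMD replicate 2, DMD replicate 3 or WT replicate 4, and 3 without DMD replicate 4 or WT replicate 2.

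Inhibitors of growth were split, with 2 of 12 tested genes higher and 3 lower (median -0.029). *BTG1*, an antiproliferative gene that is high in resting cells, had 712, 790.0, 792 and 665 CPM in DMD, against 346, 309, 362 and 329 CPM in WT (log2 fold change 1.13 ± 0.09, edgeR adjusted *p* = 2.09e-07). *GADD45G*, a stress-induced growth arrest gene, had 22.1, 46.8, 41.9 and 23.6 CPM in DMD, against 4.37, 6.205, 10.9 and 4.62 CPM in WT (log2 fold change 2.30 ± 0.37, edgeR adjusted *p* = 0.000260). Both were higher in DMD, as were 3 of the 14 tested cell cycle genes above, a share called (21.4%) near that of all genes tested (18.2%). *TXNIP*, which binds thioredoxin and limits glucose uptake, had 7.38, 13.9, 29.1 and 26.2 CPM in DMD, against 87.3, 101, 148 and 77.0 CPM in WT (log2 fold change -2.44 ± 0.35, edgeR adjusted *p* = 0.000333). *KLF4*, a Krüppel-like factor that restrains division in many cells, had 46.8, 31.6, 57.03 and 56.4 CPM in DMD, against 118, 103, 70.6 and 73.9 CPM in WT (log2 fold change -0.94 ± 0.22, edgeR adjusted *p* = 0.00485).

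Of 8 tested immediate early and stress transcription regulators 3 were lower and none higher (median -0.18). They were *KLF4* with its relative *KLF6*, which had 61.5, 51.8, 71.0 and 72.2 CPM in DMD, against 135, 185, 125 and 134 CPM in WT (log2 fold change -1.18 ± 0.17, edgeR adjusted *p* = 6.37e-05), and the serum and glucocorticoid induced kinase *SGK1*, with 24.6, 21.5, 43.1 and 18.4 CPM in DMD, against 56.8, 81.9, 97.8 and 87.7 CPM in WT (log2 fold change -1.59 ± 0.26, edgeR adjusted *p* = 0.000256). In the hypoxia list 5 of 14 tested genes were lower and none higher (median -0.13), 35.7% called against 18.2% of all genes tested. The 5 included *VEGFA*, *ADM* and *TXNIP*.

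**Figure D4:**
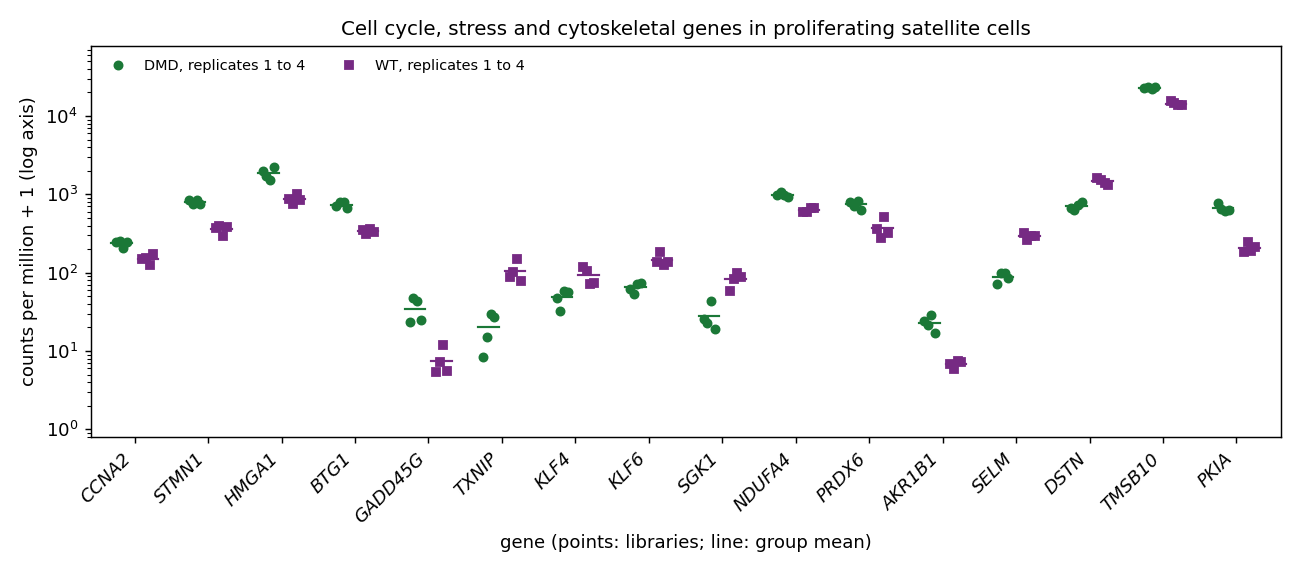
CPM + 1 on a log axis for 16 genes of division, growth arrest, stress, redox balance and the cytoskeleton in the 4 DMD libraries (left, green circles) and the 4 WT libraries (right, purple squares), with group means as lines. The points lie closer together than those of the contractile genes, with the largest fold changes at *GADD45G* and *TXNIP*.

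Redox genes were called in both directions, with 3 of 31 tested members higher and 5 lower (median -0.13), 25.8% called against 18.2% of all genes tested. *PRDX6*, a peroxiredoxin with phospholipase activity, had 808, 718, 819 and 622 CPM in DMD, against 357, 279, 512 and 320.1 CPM in WT (log2 fold change 1.01 ± 0.17, edgeR adjusted *p* = 0.00123). *AKR1B1*, aldose reductase, had 23.4, 20.2, 27.9 and 15.7 CPM in DMD, against 5.82, 4.96, 6.52 and 6.16 CPM in WT (log2 fold change 1.87 ± 0.34, edgeR adjusted *p* = 0.000613). The selenoprotein *SELM*, a RefSeq synonym of *SELENOM*, had 70.1, 97.3, 97.8 and 84.0 CPM in DMD, against 319, 258, 297 and 297 CPM in WT (log2 fold change -1.75 ± 0.13, edgeR adjusted *p* = 8.82e-08) and was among the decreases with the smallest *p*. Of 31 tested oxidative phosphorylation genes, 26 had a log2 fold change above 0 (median 0.24), yet only *NDUFA4*, a subunit bound to cytochrome c oxidase, was called, with 971, 1078, 971 and 922 CPM in DMD, against 588, 602, 668 and 663 CPM in WT (log2 fold change 0.64 ± 0.08, edgeR adjusted *p* = 2.77e-05). It was under the threshold without DMD replicate 2 (0.59) or WT replicate 1 (0.596), which left no call in the list. Of 24 lysosome and autophagy genes 4 were lower and none higher, 16.7% called against 18.2% of all genes tested. Among them *LAMP2*, a lysosomal membrane protein needed for autophagy, had 43.1, 40.5, 41.9 and 43.3 CPM in DMD, against 78.6, 83.1, 112 and 53.9 CPM in WT (log2 fold change -0.97 ± 0.21, edgeR adjusted *p* = 0.00224). *ACSL3*, which activates fatty acids on lipid droplets, had 50.4, 55.6, 65.2 and 47.2 CPM in DMD, against 18.9, 27.3, 32.6 and 27.7 CPM in WT (log2 fold change 1.02 ± 0.21, edgeR adjusted *p* = 0.00206).

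The cytoskeletal list had 5 of 29 tested genes higher and 3 lower, 27.6% called against 18.2% of all genes tested. *TMSB10*, a thymosin that binds actin monomers, was very abundant with 22784, 23354, 21885 and 23404 CPM in DMD, against 15377, 14518, 13659 and 13896 CPM in WT (log2 fold change 0.66 ± 0.07, edgeR adjusted *p* = 3.68e-06). *DSTN*, destrin, which depolymerizes actin, had 662, 622, 733 and 796 CPM in DMD, against 1633, 1525, 1395 and 1296 CPM in WT (log2 fold change -1.07 ± 0.10, edgeR adjusted *p* = 8.09e-07), whereas its muscle relative *CFL2* was higher. *TPM1*, tropomyosin 1, had 792, 994, 1139.5 and 762.3 CPM in DMD, against 519.6, 475, 540.0 and 482 CPM in WT (log2 fold change 0.86 ± 0.12, edgeR adjusted *p* = 5.53e-05), and the smooth muscle light chain *MYL9* had 111, 125, 184 and 157 CPM in DMD, against 409, 252, 265 and 225 CPM in WT (log2 fold change -1.002 ± 0.20, edgeR adjusted *p* = 0.00341). *TPM1* was thus the only one of 11 tested smooth muscle contractile genes that was higher, and 3 were lower.

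Ribosomal proteins, folding and translation gave no call. In edgeR none of 41 ribosomal protein genes, 24 folding genes and 12 translation factors was called, and DESeq2 called none either. An unadjusted *p* under 0.05 was found for 16, 7 and 4 of them, and an adjusted *p* under 0.05 for 10, 2 and 2, all with a fold change under the threshold. Of the 41 ribosomal protein genes 37 had a log2 fold change above 0. Scaling by library size alone called 1 ribosomal protein gene lower. Their log2 fold changes ran from -0.51 to 0.30, from -0.44 to 0.38 and from -0.24 to 0.54, and the medians were 0.13, 0.00099 and -0.028.

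Some genes that did not pass the filter were counted in 1 genotype alone. *CACNG1*, the gamma subunit of the muscle calcium channel, had 10, 4, 10 and 4 counts in DMD, against 0, 0, 0 and 0 in WT. Setting the WT group at a floor of 3 counts, scaled by library totals, it was at least 7.97-fold higher in DMD (3.98-fold with halved counts). *KCNE3*, a potassium channel subunit, had 0, 0, 0 and 0 counts in DMD, against 2, 10, 6 and 6 in WT, and *ETV5*, a transcription factor downstream of fibroblast growth factor signals, had 0, 0, 0 and 0 counts in DMD, against 4, 4, 14 and 2 in WT. Both came to at least 9.37-fold lower (4.68-fold with halved counts). In a fit without the filter, *CACNG1*, *KCNE3* and *ETV5* had edgeR adjusted *p* values of 0.00519, 0.00752 and 0.00879. The floors cover counting error only.

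For 477 of 2030 genes tested in all 16 libraries (23.5%), the difference between DMD and WT differed between PROL and DIFF. Of these, 314 had opposite signs in the 2 states, 115 had the same sign and were smaller in PROL, and 48 had the same sign and were larger in PROL. Signs were taken without a threshold, so the 314 include genes near 0 in 1 state, such as *KLF6* (-1.17 in PROL, 0.093 in DIFF). Of the 349 genes called in PROL, 148 were among the 477. Among the contractile genes with the same sign and a larger difference in PROL, *ACTN2* had a log2 fold change of 5.01 in PROL and 1.95 in DIFF, a difference of 3.06 ± 0.61 (edgeR adjusted *p* = 0.000854). For *TNNT1* the values were 4.31 and 1.99, and for *CARP* 4.13 and 3.09. *MYH1* and *MYBPH* were not called in this test.

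The genes with the smallest *p* in this test, 5 per direction, included 5 whose difference was more positive in PROL than in DIFF. *CAT*, catalase, which breaks down hydrogen peroxide, was at -0.48 in PROL and -3.49 in DIFF (difference 3.01 ± 0.17, edgeR adjusted *p* = 7.11e-11). *ADM* was at -0.62 and -3.28 (2.66 ± 0.17, edgeR adjusted *p* = 1.57e-10). Both differences were thus small in proliferation and large after differentiation. *HMGA1* changed sign, with 1.12 in PROL and -1.84 in DIFF (2.96 ± 0.20, edgeR adjusted *p* = 1.54e-09), as did *PSIP1*, a chromatin-binding coactivator, with 0.58 and -1.68 (2.25 ± 0.17, edgeR adjusted *p* = 2.84e-09). The open reading frame *C5H12orf57* was at -0.25 and -2.36 (2.11 ± 0.18, edgeR adjusted *p* = 1.03e-08).

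The other 5 had a negative log2 fold change in PROL and a positive one in DIFF. *SELM* was at -1.74 in PROL and 0.59 in DIFF (-2.33 ± 0.17, edgeR adjusted *p* = 1.18e-09). *STEAP1*, a metalloreductase of the cell membrane, was at -1.46 and 1.11 (-2.56 ± 0.23, edgeR adjusted *p* = 1.79e-08), and *SMAP2*, which acts in vesicle traffic, at -1.44 and 1.02 (-2.46 ± 0.21, edgeR adjusted *p* = 1.03e-08). Each of these 3 was a call in PROL too. *CYCS*, cytochrome c, was at -0.20 and 1.95 (-2.15 ± 0.17, edgeR adjusted *p* = 1.03e-08), and *MSN*, moesin, which ties actin to the membrane, at -0.40 and 1.60 (-2.01 ± 0.15, edgeR adjusted *p* = 2.27e-09). Neither was called in PROL.

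**Figure D5:**
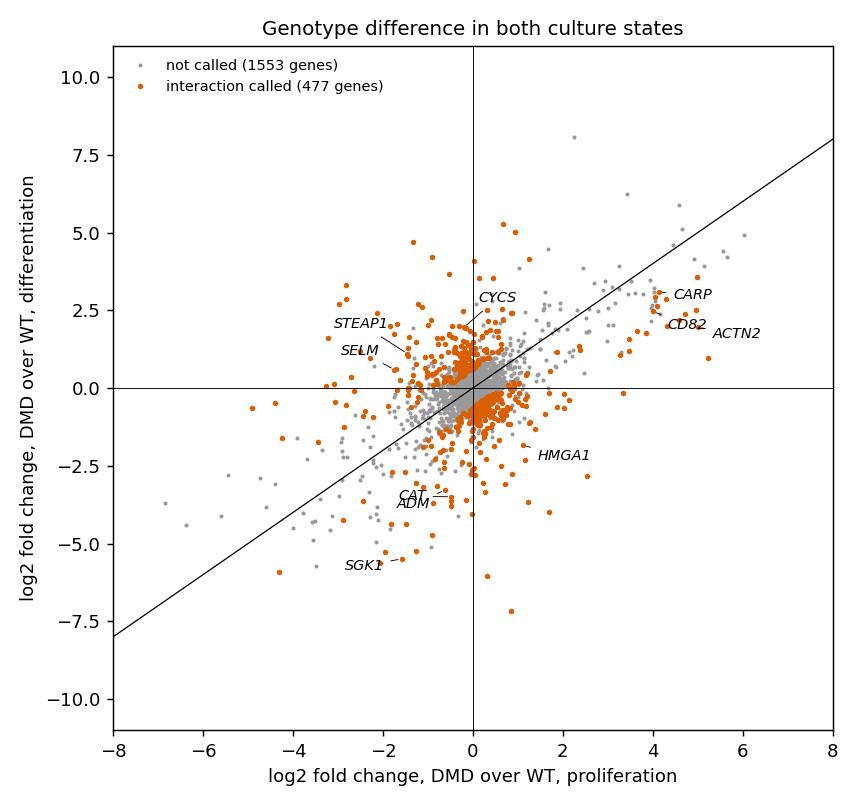
Log2 fold change of DMD over WT in PROL (horizontal) and in DIFF (vertical) for 2030 genes from 1 fit over 16 libraries, with the line of equal values. The 477 genes called for a difference between the states are orange, and *HMGA1* lies below the line with opposite signs while *SELM* and *STEAP1* lie above it.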

How the data were processed

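The authors made 3′ libraries with unique molecular identifiers from 25 ng of total RNA in 2 technical duplicates per sample, mapped the reads with STAR 2.7.10b on susScr3, removed repeated identifiers and counted reads per gene. The deposited values are raw counts, not normalized, and all 124000 are even. Annotation and strand setting are not given in the sources used here, so overlapping or antisense genes cannot be told apart. Of 3875 gene names, 3502 were current symbols and 204 older symbols or synonyms.

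Duplicates were summed. In R 4.3.3, edgeR 4.0.16 kept genes by filterByExpr (count 10, total 15), applied TMM factors, and fitted robust quasi-likelihood models to the 8 PROL libraries, or to all 16 for the difference between PROL and DIFF. A call needed an adjusted *p* (Benjamini-Hochberg) under 0.05 and a log2 fold change beyond 0.6 in size. The SE is derived from the fold change and its F statistic. CPM use TMM factors of the 16-library fit. The procedure was tested on simulated data. Totals of 1110050 to 1664700 counts per library set the precision. Each sample is a culture of 1 animal.

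Named genes were *DMD*, per direction the 12 largest non-overlapping changes (mean of 20 CPM or more) and the 12 smallest *p*, up to 4 called members of each of 36 lists, SC markers, and 5 genes per direction from the PROL and DIFF test and from genes counted in 1 genotype alone. Members, lists and rule were chosen with earlier results of these data known. A few genes behind small counts were named after their values were seen, without values, and some genes that the rule names are not reported here. DESeq2 1.42.0, other scalings, filters, thresholds, single duplicates, blocks and left-out libraries were the alternatives. PROL and DIFF libraries of 1 animal are paired by origin; after subtracting group means their log2 CPM showed correlations of 0.0998 to 0.172.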

Additional observations from a re-analysis of the deposited data

Results flagged for a closer look

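In 14 of 186 groups of 4 libraries, 1 library met Dixon's criterion for lying far from the other 3. In DMD these were replicate 3 for *C4* (6.98 CPM), replicate 3 for *CCNA2* (204 CPM), replicate 3 for *CD55* (2.33 CPM), replicate 3 for *ENO3* (533 CPM), replicate 1 for *PSIP1* (442 CPM) and replicate 1 for *SERPING1* (83.7 CPM). In WT they were replicate 1 for *CALCR* (1.46 CPM), replicate 3 for *CHI3L1* (356 CPM), replicate 3 for *GAL* (3.26 CPM), replicate 4 for *MLC2V* (12.3 CPM), replicate 3 for *MSTN* (2.17 CPM), replicate 1 for *MYOD1* (5.82 CPM), replicate 2 for *PSIP1* (372 CPM) and replicate 3 for *SFRP2* (4339 CPM). Chance meets the criterion in about 1 of 20 groups of continuous values, but not at that rate where low counts are tied. The other 3 libraries had equal counts for *CALCR*, *GAL*, *MSTN* and *MYOD1* in WT and for *C4* and *CD55* in DMD, which meets the criterion at almost any distance. The 186 also hold groups without counts, which could not be flagged.

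The difference between DMD and WT itself differed between PROL and DIFF for 45 of the 93 genes examined by name. This was tested in edgeR by the interaction of genotype and state. The 93 include genes that did not pass the filter on low counts in that fit and were not tested. They also include genes that were named because they had the smallest *p* in this same test. The 45 of 93 can therefore not be compared with the share over all genes tested, 477 of 2030 (23.5%). The values are the log2 fold change in PROL minus that in DIFF. It was positive for 29 genes: *ACTC1* 1.44, *ACTN2* 3.06, *ADM* 2.66, *BMP4* 1.97, *C4* 3.54, *C5H12orf57* 2.11, *CARP* 1.04, *CAT* 3.01, *CD82* 1.54, *CDH11* 0.90, *CSF1* 2.501, *DCN* 1.34, *DES* 1.12, *HMGA1* 2.96, *IFIH1* 2.65, *IGFBP6* 2.54, *KLF4* 0.94, *MEF2C* 1.89, *MLC2V* 1.42, *PGAM2* 1.44, *PLAC9* 1.79, *PRDX6* 1.46, *PSIP1* 2.25, *PSMB10* 0.66, *SERPING1* 3.34, *SGCA* 2.29, *SGK1* 3.91, *TNNT1* 2.32 and *TXNIP* 1.19. It was negative for 16 genes: *COL1A2* -0.84, *CYCS* -2.15, *DKK3* -2.73, *DSTN* -1.69, *ITGB1* -0.88, *KLF6* -1.27, *MFAP5* -1.30, *MSN* -2.01, *MYL9* -3.02, *RGS5* -3.90, *SELM* -2.33, *SMAP2* -2.46, *STEAP1* -2.56, *TMEM59L* -1.62, *TPM1* -1.53 and *VEGFA* -3.06.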

How the results depend on the processing

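With 349 genes called, 160 higher in DMD and 189 lower, the counts fell to 217, 102 and 115 when a log2 fold change over 1 was asked for, and the count of higher genes to 98 with a minimum count of 50. Leaving out 1 library at a time gave 309 to 355 calls, 139 to 169 higher and 161 to 190 lower, and 447 to 481 genes in place of 477 for the difference between PROL and DIFF. Other settings gave 234 to 427 calls. No gene called at first changed sign under any of them. Scaling by library size alone called 122 genes higher and 264 lower (31.6% higher). Replicate numbers are shared by DMD and WT, and the same-numbered libraries' deviations correlated by -0.0463 to 0.133. PROL and DIFF libraries of 1 animal reached only 0.0998 to 0.172, so this measure cannot tell whether same-numbered libraries share more than a number. With the number as a replicate block 326 genes were called (150 higher, 176 lower), and with the animal as a replicate block the number of genes whose DMD against WT difference differed between PROL and DIFF was 492. Library size alone also moved the higher counts of the cell cycle list to 1, of the proteoglycan list to 2 and of the cytoskeletal list to 3, and the lower count of the redox list to 9. Without the filter the higher counts were 8 for the Z-disc, 4 for muscle energy and for growth factors, and 2 for oxidative phosphorylation and interferon, and the lower counts 6 for peptides, 5 for stress regulators and 1 for muscle energy. Besides the lost calls given above, *TMSB10* fell short under library size alone (0.51), as did *CCNA2* (0.51) and *NDUFA4* (0.49). With duplicate 2 alone *ADM* (-0.31), *BMP4* (0.52), *CCNA2* (0.55) and *NDUFA4* (0.52) were not called, and with duplicate 1 alone *PSMB10* (-0.70) was not. Depth limits genes of few counts: 1914 of 3875 passed the filter. The causes were not tested.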
